A study of Rattus norvegicus with 2 samples.

Results

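The proteins of the mitochondrial ribosome, the particle that translates the messages of mitochondrial DNA, were examined at the level of their nuclear transcripts in rat liver. The family was chosen with earlier results of these data known. Its genes were taken by a name rule, as every gene whose platform symbol begins with Mrpl or Mrps followed by a number. This gave 73 of the 14217 genes with a single symbol on the array, 48 of them assigned to the large subunit and 25 to the small subunit. The RefSeq table of assembly GRCr8 used here lists 74 protein-coding genes with such names, and of these Mrps10 is the one not analysed. The 73 hold no gene named Mrpl9, Mrpl11 or Mrpl24, and completeness of the family was not checked beyond that table. Mrps30 and Mrps18a carry small-subunit names but belong to the large subunit, and they were counted there.

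The liver remaining in the rat was compared 24 h after 1/3PH and after 2/3PH, where PH is partial hepatectomy, an operation that takes out a share of the organ. Both groups were operated, and there was no unoperated or sham-operated array. Each group is a pool of RNA from 3 rats on 1 array, 6 rats and 2 arrays in all. The sources used here do not give the strain, sex or age of the rats. The series' design text describes DNA replication as strong after 2/3PH and minimal after 1/3PH, and the comparison addressed which transcripts differ between them. With 1 array per group no test was possible, no value below has a replicate error, and a gene is called higher or lower by its signal after 2/3PH against that after 1/3PH.

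The mitochondrial ribosome has a small subunit, which holds the messenger RNA and decodes it, and a large subunit, which joins the amino acids and releases the chain through an exit tunnel. Its RNAs come from mitochondrial DNA, whereas all its proteins are encoded in the nucleus, made in the cytosol and imported. In mammals its products are core subunits of the respiratory chain and ATP synthase. Liver cells are rich in mitochondria, and a dividing cell has to enlarge its set of them.

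Values are MAS 5.0 signals, one per probe set, and differences are log2 ratios, 2/3PH minus 1/3PH. For each gene the brightest probe set was used, by mean log2 signal over both arrays. Genes were kept at or above a floor, a mean signal of 89.2, the median of all probe sets that were not controls. All 73 mitoribosomal protein genes reached that floor, as did 9514 of all genes. The lowest mean signal among the 73 was 374, for Mrpl38 of the central protuberance, followed by 667 for Mrps27. The probe sets with the highest mean signals were those of Mrpl17, Mrpl12, Mrpl41, Mrpl15 and Mrpl18, from 9829 down to 4776. Signals of different probe sets are not on a common scale of transcript amount, so each gene is compared with itself across the arrays.

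The transcripts were higher after 2/3PH nearly throughout, by small amounts. Of the 73 genes, 67 had a log2 ratio above 0 and 6 below, where 52.9% of all genes were above 0 and 47.1% below. With each array centred on its median, which moves every ratio down by the same small step, 61 of the 73 were above 0. On that scale 48.7% of all genes were. The median log2 ratio was 0.30, a 1.23-fold higher signal, and the median of all genes was 0.03. The quartiles of the members lay at 0.15 and 0.54, and the whole set ran from -0.31 to 1.10.

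Few members passed a 2-fold limit. At least 2-fold higher were 3 of 73 genes and at least 2-fold lower were none, against 6.12% and 3.68% of all genes. That count is near the background and is no result about these genes. At a limit of 1.5-fold, 13 of 73 were higher and none lower, against 15.8% and 12.0% of all genes. The set thus had about the background share of larger positive ratios and no larger negative ones. Its ratios had an SD of 0.30, against 0.66 over all genes. By size, 26 members lay between 0 and 0.25, 18 between 0.25 and 0.5, 15 between 0.5 and 0.75, and 5 between 0.75 and 1.

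A rough guide to error comes from genes with several probe sets at the floor. Over 2067 such genes, the SD of a single probe set's log2 ratio was 0.31, from the brightest probe set less the next. Of the 73 members, 36 were higher by more than this SD and none was lower by more than it, against 29.5% and 24.3% of all genes. The ratios of the other 37 members were no larger than that SD. This measure leaves out the spread between rats and any error shared by a whole array. It can also take in dim probe sets and differences between transcripts of a gene.

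**Figure D1:**
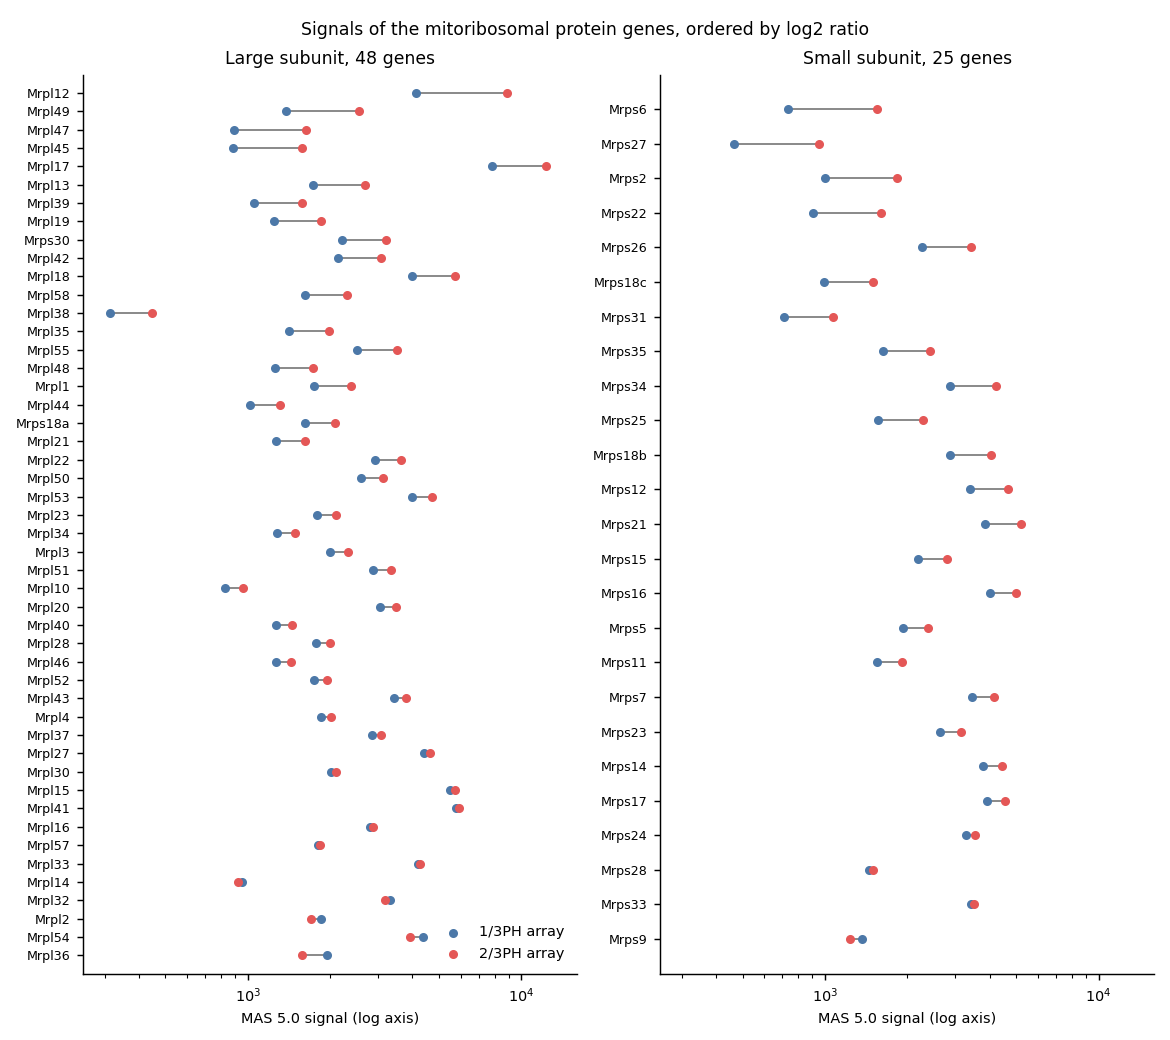
MAS 5.0 signal (log axis) of each of the 73 genes on the 1/3PH array (blue) and the 2/3PH array (red), with 48 large-subunit and 25 small-subunit genes in separate panels, each ordered by log2 ratio from the highest at the top. The red point lies to the right of the blue one for 67 genes, with gaps at the top of up to 2.15-fold for Mrpl12. Gaps narrow downwards, and at the bottom the red point lies to the left for 6 genes, by up to 1.24-fold for Mrpl36.

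Mrpl12 had the highest ratio. It encodes the protein of the flexible stalk that recruits translation factors to the large subunit, and in human cells it also binds the mitochondrial RNA polymerase. Its signal was 4127 after 1/3PH and 8874 after 2/3PH, 2.15-fold higher, and signals below are given in that order. Its other probe set gave signals of 81.2 and 212, a log2 ratio of 1.38 against 1.10 for the brighter one. Both probe sets were thus at least 2-fold higher. Among all genes at the floor, 4.95% had a higher ratio than Mrpl12.

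The other pair past 2-fold belonged to the small subunit. Mrps6, the counterpart of bacterial S6, had signals of 734 and 1552, a log2 ratio of 1.08 from its single probe set. Mrps27, a small-subunit protein with no bacterial counterpart, had signals of 467 and 953, a log2 ratio of 1.03. A dimmer probe set of Mrps27 gave 168 and 285, a ratio of 0.76. Its remaining probe set lay under the floor, with signals of 45.1 and 15.3, and the mean over all 3 gave Mrps27 a ratio of 0.07. Mrps27 was also just under 2-fold with median centring (0.98), quantile normalization (0.94), loess (0.97) and 64 units added to the signal (0.94).

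Below the 2-fold limit there was a gap and then 5 genes close together. Mrps2, the counterpart of bacterial S2, had signals of 999 and 1841, a log2 ratio of 0.88. Mrpl49, a large-subunit protein found in mitochondria only, had signals of 1383 and 2549, also a ratio of 0.88. Its second probe set gave 913 and 1651, a ratio of 0.85. Those 2 probe sets differed by 0.03, the closest agreement among genes with several.

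Mrpl47 and Mrpl45 both sit where the new chain leaves the large subunit. Mrpl47 had signals of 890 and 1637, a ratio of 0.88. Mrpl45, which ties the particle to the inner membrane, had signals of 887 and 1582, a ratio of 0.83. Mrps22, a small-subunit protein mutated in a human mitochondrial disease, had signals of 902 and 1609, a ratio of 0.83. All of these were 1.78-fold to 1.84-fold higher. Next came Mrpl17, counterpart of bacterial L17, at 7847 and 12311 with a ratio of 0.65, and Mrpl13, counterpart of bacterial L13, at 1740 and 2676 with a ratio of 0.62. The other members had ratios of 0.60 or less.

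The DNA before the start of these genes was searched for short motifs tied to mitochondrial and growth genes. The promoter table of RefSeq (GRCr8) matched 59 of the 73 genes, and the 250 bases before the listed start were read in each. For 16 of the 59 that start lies more than 50 bases inside the annotated gene, so those windows lie partly within it. The motifs, on both strands, were GCGC followed by A, any base and GCGC for NRF1, CCGGAAG for GABPA and other ETS factors, CACGTG for MYC and related factors, and AAGATGG, the core of a longer motif, for YY1. No motif contains another, an ETS match can share its last bases with the start of a YY1 match, and CACGTG reads the same on both strands. The sequences below are the 3 members with the highest ratios, and the 1 with the lowest, that hold a match in a window with no more than 50 bases inside the gene. Each runs 5′ to 3′ towards the gene and ends before its first annotated base, and capitals mark the matches. For Mrps27 and Mrpl49 the last 26 and 37 bases of the window lie inside the gene and were left out. Positions given below count from the listed start, and so include the bases left out. Mrps27 is at chr2:32473954-32474177 (+ strand), Mrpl49 at chr1:212779365-212779577 (- strand), Mrpl45 at chr10:82804789-82805038 (+ strand) and Mrpl32 at chr17:55260401-55260650 (+ strand), all in GRCr8.
Mrps27: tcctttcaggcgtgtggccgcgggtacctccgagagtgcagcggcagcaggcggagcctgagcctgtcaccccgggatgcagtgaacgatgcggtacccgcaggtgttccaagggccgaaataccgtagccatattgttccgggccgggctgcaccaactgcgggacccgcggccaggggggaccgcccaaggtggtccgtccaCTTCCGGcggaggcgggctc
Mrpl49: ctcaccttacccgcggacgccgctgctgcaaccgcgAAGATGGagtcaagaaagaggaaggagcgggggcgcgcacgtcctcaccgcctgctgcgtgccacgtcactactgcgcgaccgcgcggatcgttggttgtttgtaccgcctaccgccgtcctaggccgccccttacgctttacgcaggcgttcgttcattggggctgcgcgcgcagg
Mrpl45: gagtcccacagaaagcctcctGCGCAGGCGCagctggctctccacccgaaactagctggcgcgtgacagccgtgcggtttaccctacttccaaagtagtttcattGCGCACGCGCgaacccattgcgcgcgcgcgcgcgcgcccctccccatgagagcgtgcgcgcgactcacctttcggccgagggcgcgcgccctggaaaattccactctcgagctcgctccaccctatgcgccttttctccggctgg
Mrpl32: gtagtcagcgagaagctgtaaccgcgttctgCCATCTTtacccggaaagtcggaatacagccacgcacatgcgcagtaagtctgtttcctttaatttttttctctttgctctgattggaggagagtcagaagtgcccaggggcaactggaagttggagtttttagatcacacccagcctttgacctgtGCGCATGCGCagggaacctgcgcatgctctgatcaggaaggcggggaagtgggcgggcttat

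In these 4, Mrps27 held an ETS match from 46 to 40 bases before the listed start, and Mrpl49 a YY1 match from 214 to 208. Mrpl45 held 2 NRF1 matches, from 229 to 220 and from 145 to 136 bases before its start. Mrpl32, which had a log2 ratio of -0.05, held an NRF1 match from 62 to 53, palindromic and so found on both strands, and a YY1 match from 219 to 213. The NRF1 motif thus occurred in a member 1.78-fold higher and in one with nearly equal signals.

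Over all 59 promoters each motif was found in a minority of members. NRF1 matched 7 of 59 (11.9%), against 9.86% of 7995 genes at the floor and 4.17% of all 27457 promoters. The ETS motif matched 13 (22.0%), against 16.6% and 7.74%. The MYC motif matched 4 (6.78%), against 8.56% and 5.79%, and the YY1 motif 5 (8.47%), against 4.42% and 4.63%. At least one of the motifs was found in 33.9% of the members and in 33.6% of the genes at the floor. Among the members, the ETS motif lay in 6 of 27 with ratios in the upper part of the set and in 7 of 32 in the lower part, and NRF1 in 4 of 27 and 3 of 32. These are matches of letters only and carry no measure of binding.

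The subunits differed in their medians. The 48 large-subunit genes had a median log2 ratio of 0.23, with 43 above 0, and the 25 small-subunit genes one of 0.45, with 24 above 0. The large-subunit median was lower by 0.22, and this difference lay between -0.27 and -0.16 under the alternatives that can change it. Median centring and both spike-in scalings move every ratio by 1 constant and cannot change it. Leaving out the floor cannot either, since every member reaches it. Both subunits spanned overlapping ranges, from -0.31 to 1.10 for the large and from -0.15 to 1.08 for the small. At least 1.5-fold higher were 6 of 48 (12.5%) and 7 of 25 (28.0%), against 15.8% of all genes. The difference comes from the same pair of arrays and was not tested.

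The proteins can also be split by ancestry, into families with a bacterial counterpart and those added in mitochondria. The 44 genes of the first kind had a median of 0.29 and the 29 of the second 0.47. In the small subunit the 9 mitochondria-specific genes had a median of 0.58, all above 0, and the 16 with bacterial counterparts 0.31. In the large subunit the corresponding medians were closer, 0.26 over 20 genes and 0.22 over 28. Of the 9, Mrps33 was nearest 0, with signals of 3421 and 3511 and a ratio of 0.04, and Mrps23 followed at 0.25. The remaining ones were Mrps25 at 0.55, Mrps34 at 0.56, Mrps35 at 0.58, Mrps31 at 0.59 and Mrps26 at 0.60, besides Mrps22 and Mrps27.

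**Figure D2:**
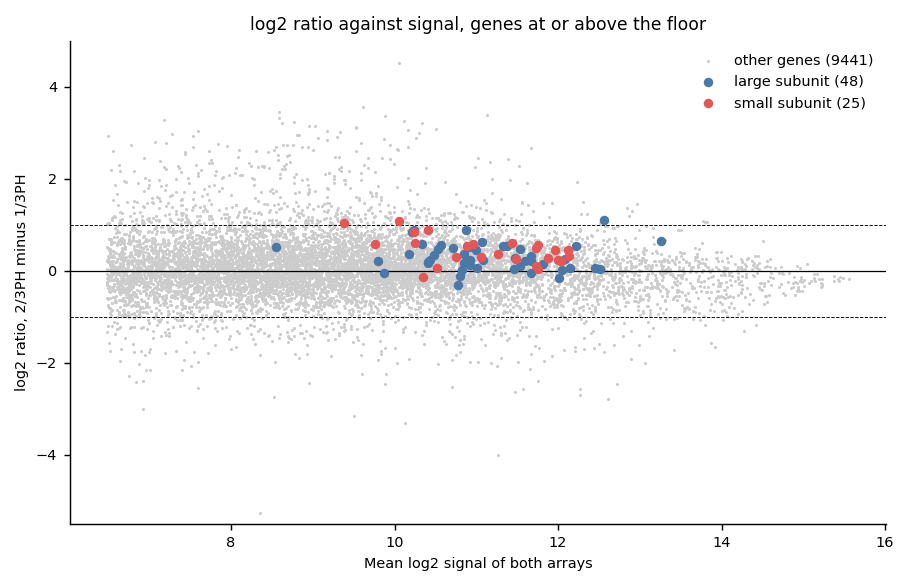
Each point is a gene at or above the floor, placed by its mean log2 signal over both arrays and by its log2 ratio, 2/3PH minus 1/3PH, with other genes in grey, large-subunit genes in blue and small-subunit genes in red. Dashed lines mark 2-fold. The coloured points form a narrow band mostly above 0, from -0.31 to 1.10, while grey points at the same signals reach far beyond both dashed lines.

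By position in the particle, the stalk genes differed from each other. Mrpl10, the stalk base, had signals of 829 and 960, a ratio of 0.21, against 1.10 for Mrpl12. At the tunnel exit, besides Mrpl47 and Mrpl45, Mrpl22 stood at 2916 and 3626 with a ratio of 0.31 and Mrpl23 at 1794 and 2111 with 0.23. Mrpl4, in the wall of the tunnel, had signals of 1847 and 2025, a ratio of 0.13. Near the site where peptide bonds form, Mrpl3 had 2000.2 and 2333, a ratio of 0.22, and Mrpl2 had 1856 and 1705, a ratio of -0.12. Of the 2 proteins near that site, Mrpl3 lay close to the large-subunit median of 0.23 and Mrpl2 just below 0. Those at the exit ranged from 0.23 to 0.88. Sites were assigned to only some of the members, so these values show no general pattern by position.

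The 6 genes assigned here to the central protuberance, a knob on the large subunit that faces the small one, were all above 0. Mrpl18 had signals of 3977 and 5736, a ratio of 0.53, and Mrpl38 had 313 and 447, a ratio of 0.51. Mrpl48 stood at 0.47, Mrpl40 at 0.19, Mrpl46 at 0.17 and Mrpl52 at 0.16. None of the 6 reached 1.5-fold. In the small subunit, Mrps12, at the decoding centre, had signals of 3398 and 4662, a ratio of 0.46.

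The lowest ratios were small. Mrpl36, counterpart of the small bacterial protein L36, had signals of 1954 and 1576, 1.24-fold lower, a log2 ratio of -0.31. Mrpl54, a mitochondria-specific large-subunit protein, had 4366 and 3910, a ratio of -0.16. Mrps9, counterpart of bacterial S9, had 1367 and 1236, a ratio of -0.15, the lowest of the small subunit. All 3 differences are within the SD of a single probe set, that of Mrpl36 only just, at -0.310 against an SD of 0.311.

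The second probe set of Mrps9 went the other way, at 1058 and 1369 with a ratio of 0.37, so its direction is not settled. Mrpl32 had signals of 3302 and 3188, a ratio of -0.05, and Mrpl14, counterpart of bacterial L14, 953 and 921, also -0.05. Of the 6 ratios below 0, 5 turned positive with hybridisation control scaling, Mrpl36 being the exception, and all 6 did with poly-A control scaling.

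Next above 0 stood 6 genes with ratios from 0.02 to 0.05, all of which turned negative with median centring. Mrpl33, counterpart of bacterial L33, had signals of 4188 and 4255. Mrpl57 had 1801 and 1831, and Mrpl16, counterpart of bacterial L16, had 2796 and 2866. Mrpl41, linked to cell death control in human cells, had 5753 and 5911, and Mrpl15, counterpart of bacterial L15, had 5510 and 5704. With Mrps33 these showed nearly equal signals on both arrays. Mrpl41 and Mrpl15 lay beside Mrpl12 and Mrpl17 in signal, so bright members were found at both ends of the order.

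Ratios were somewhat larger for dimmer probe sets. The median log2 ratio was 0.47 over the 24 dimmest, 0.30 over the middle 25 and 0.23 over the 24 brightest. Across the 73 genes, which share both arrays, Pearson's r between mean log2 signal and log2 ratio was -0.22 and Spearman's rho was -0.23. With a loess trend on signal removed, the median was 0.31 and 67 genes were still above 0, against 51.2% of all genes. Other genes in the same middle range of signal, 1415 of them, had a median of 0.04, with 53.2% above 0.

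Probe sets of the same gene gave a check within the arrays. Of the 73 genes, 18 had several probe sets and 12 had several at or above the floor. In 9 of these 12 all probe sets lay on the same side of 0, and in none did they span more than 1.5-fold. The median span was 0.25. The 4 probe sets of Mrpl51, a mitochondria-specific large-subunit protein, lay from 0.22 to 0.45. Those of Mrpl40 were furthest apart, at 0.19 and 0.73.

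The 3 genes with probe sets on both sides of 0 were Mrps9, as above, Mrpl52 and Mrpl57. Mrpl52 had 1754 and 1955 by the brighter probe set, a ratio of 0.16, and 674 and 616 by the dimmer, a ratio of -0.13. Mrpl57 had a ratio of 0.02 by the brighter and one of -0.14 by the dimmer, at 448 and 408. The direction of these 3 genes was thus not settled by their probe sets.

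**Figure D3:**
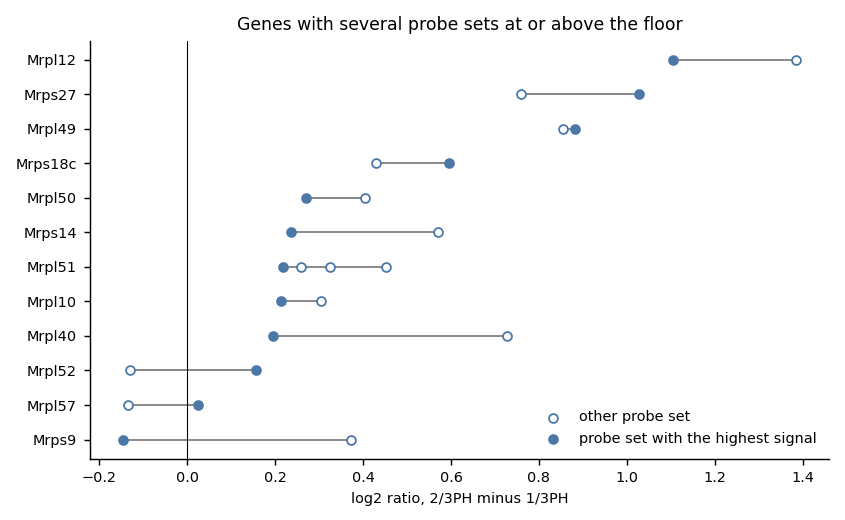
log2 ratio, 2/3PH minus 1/3PH, of every probe set at or above the floor for the 12 genes with several, with the probe set of the highest signal filled and the others open. For 9 genes all points lie right of 0, and Mrps9, Mrpl52 and Mrpl57 have points on both sides.

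Genes that work with the mitochondrial ribosome were set beside its proteins. The 5 measured mitoribosomal proteins with other names had a median log2 ratio of 0.47, all above 0. Ptcd3, which lies at the path of the messenger RNA into the small subunit, had signals of 1703 and 2749, a ratio of 0.69. Chchd1 stood at 0.55, Gadd45gip1 at 0.47, Aurkaip1 at 0.15 and Dap3 at 0.06. None was 2-fold higher, and these genes share no name rule with the 73.

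Of 22 assembly factors at the floor, 15 were above 0 and none passed 2-fold either way, with a median of 0.32. The median was 0.16 without a floor and 0.12 with the floor at the 75th percentile. Mrm3, which methylates the ribosomal RNA of the large subunit, had signals of 248 and 448, a ratio of 0.85. The helicase Ddx28 stood at 0.66, Mrm2, another methyltransferase for that RNA, at 0.66 and the GTPase Noa1 at 0.62.

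Of 23 mitochondrial tRNA synthetases and tRNA modifiers, 18 were above 0 and none passed 2-fold, with a median of 0.37. Qrsl1, which helps to charge glutamine tRNA, had 280 and 551, a ratio of 0.97, and the pseudouridine synthase Pus1 and the isopentenyl transferase Trit1 each stood at 0.83. Cars2, the cysteine tRNA synthetase, had 479 and 247, a ratio of -0.95. Translation factors were divided, with 6 of 13 above 0, none past 2-fold and a median of -0.01 that turned positive under both spike-in scalings and without a floor. Mtrf1, of the release factor family, stood at 0.53, Slirp, which binds mitochondrial messenger RNA, at 0.50 and its partner Lrpprc at 0.42. Mtrf1l, the release factor itself, stood at 0.36. The 7 below 0 ran from -0.26 for Mtif2 and Gfm1 to -0.01 for Mrrf.

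Genes for the transcription and copying of mitochondrial DNA went both ways. Of 18, 10 were above 0, and the median was 0.26, or 0.16 with quantile normalization. Mgme1 passed 2-fold upwards and Polg2 downwards, 1 of 18 each way, against 6.12% and 3.68% of all genes. Mgme1, a nuclease that trims that DNA, had signals of 576 and 1413, a ratio of 1.30. Polg2, the accessory subunit of the mitochondrial DNA polymerase, had 4088 and 1548, 2.64-fold lower. Fastkd5, which acts in RNA processing, stood at 0.77 and Mterf2 at -0.74.

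All 10 regulators of mitochondrial gene expression were above 0, and 2 of them were past 2-fold, against 6.12% of all genes. Their median was 0.43, or 0.32 with 64 units added and 0.25 over only those that reach the floor at the 75th percentile. Pprc1, a coactivator of the PGC-1 family, had 296 and 738, 2.50-fold higher, and the nuclear receptor Esrra had 120 and 249, 2.08-fold higher. Ppargc1a, also of the PGC-1 family, stood at 0.74 and Myc at 0.67. Of 28 genes of mitochondrial protein import, 19 were above 0, and the median was 0.32. The 2 past 2-fold were 7.14% of the list, near the 6.12% of all genes. Past 2-fold were Timm21, at 1006 and 2414, and Timm9, at 1149 and 2495. The import receptor Tomm20 stood at 0.93 and the small Tim protein Timm8a1 at 0.92.

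The 3 most closely related sets were the cytosolic ribosomal proteins, the respiratory chain and ATP synthase subunits, and nucleolar genes of ribosome assembly. Of 40 cytosolic ribosomal protein genes, 37 were above 0, with a median of 0.17 and a SD of 0.20. Rps4y2 was the 1 of them past 2-fold (2.5%, against 6.12% of all genes), with signals of 780 and 1627. Rpl39, whose signals of 106 and 169 lie near the floor of 89.2, stood at 0.67, Rpl4 at 0.41 and Rpl35a at 0.32. Probe sets with several symbols were left out. Of 72 oxidative phosphorylation subunits, 38 were above 0 and none passed 2-fold, with a median of 0.01. That value depended on the scaling, being -0.04 with median centring, 0.13 with loess, 0.15 with quantile normalization, 0.25 with hybridisation controls and 0.45 with poly-A controls. Ndufa5 stood at 0.79, Ndufv3 at -0.62, Atp5me at -0.61 and Sdha at -0.48.

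All 49 nucleolar genes were above 0, 20 of them past 2-fold (40.8%, against 6.12% of all genes), and their median was 0.87. Highest were Rrp1b at 1.77, Nop58 at 1.69, Nop56 at 1.56 and Mrto4 at 1.54. As deposited, the mitoribosomal protein median of 0.30 lay above those of the cytosolic ribosomal proteins and the respiratory subunits and below that of the nucleolar genes. The order against the cytosolic ribosomal proteins turned with quantile normalization, where they stood at 0.34 and the mitoribosomal proteins at 0.30, and with the loess trend removed, at 0.34 and 0.31. These medians come from the same 2 arrays, and no difference between them was tested.

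**Figure D4:**
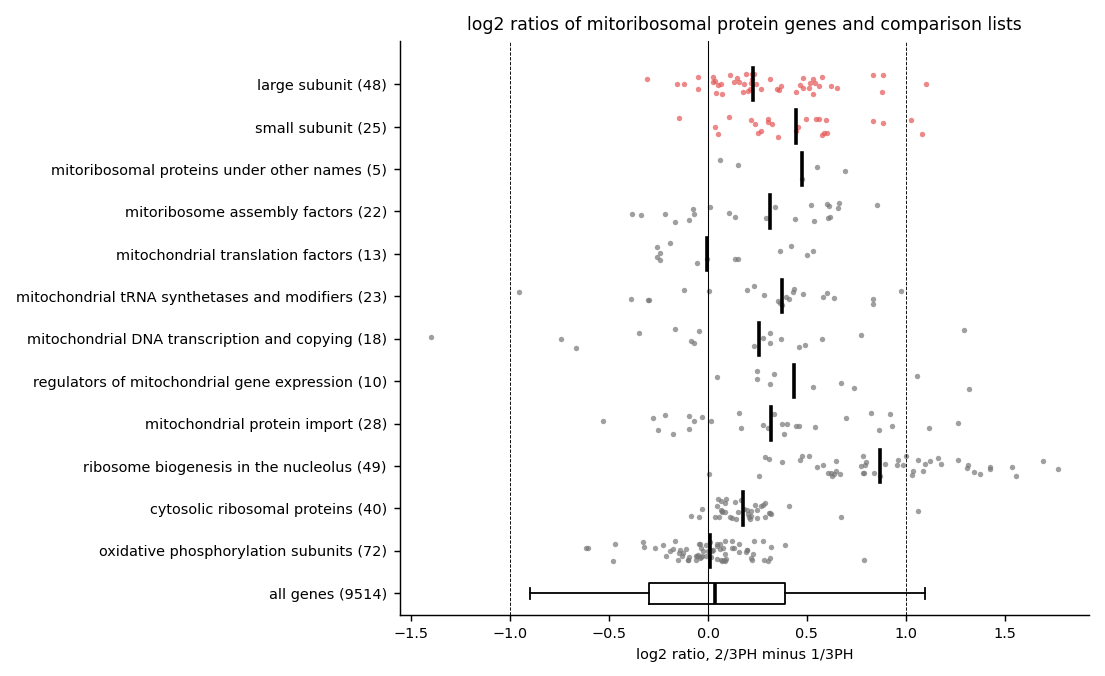
log2 ratio, 2/3PH minus 1/3PH, of each gene at or above the floor (points, spread vertically for visibility) in both subunits (red) and in the comparison lists (grey), with medians as black bars, and all 9514 genes as a box (quartiles, whiskers at the 5th and 95th percentiles). Numbers of genes are in brackets, and dashed lines mark 2-fold. On the deposited scale the respiratory subunits centre at 0.01, mitoribosomal subunits at 0.23 and 0.45, and nucleolar genes at 0.87.

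The tissue held strong hepatocyte signals on both arrays, and other cell types moved with the comparison. All 9 hepatocyte markers measured were lower after 2/3PH, with a median log2 ratio of -0.18 and signals that summed to 287150 and 249251. Sums here cover the markers at the floor and are weighted to the brightest probe sets. Among the erythroid and neutrophil markers, Hbb alone had 24195.5 and 12168. The 9 markers of macrophages, including Kupffer cells, all lay below 0, summing to 18892 and 12352, as did all 7 endothelial markers, at 11915 and 7598, and all 5 erythroid and neutrophil markers, at 30146 and 14646. Of 8 stellate cell markers at the floor 6 were lower, with summed signals of 12432 and 6868, and both cholangiocyte markers at the floor were higher, at 884 and 1066. Of 5 lymphocyte markers 4 were under the floor, and Gzma had 151 and 62.3. No marker was listed at a log2 signal of 0. Their part in the mitoribosomal ratios was not tested, and in bulk tissue fewer cells of a type and less RNA per cell cannot be told apart.

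The deposited signals have nearly the same trimmed mean on each array, so the ratios are relative to the rest of the transcripts. Spiked-in controls were lower on the 2/3PH array, by a median log2 ratio of -0.24 for the 18 hybridisation control probe sets and -0.44 for the 24 poly-A control probe sets. Scaling to them moved the median of all genes from 0.03 to 0.27 and 0.48, and that of the mitoribosomal proteins from 0.30 to 0.54 and 0.74. Relative to all genes the mitoribosomal median was 0.27 higher on each of these scales. The split of all genes past 2-fold, 582 higher and 350 lower as deposited, became 973 and 210 with hybridisation controls and 1599 and 123 with poly-A controls.

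**Figure D5:**
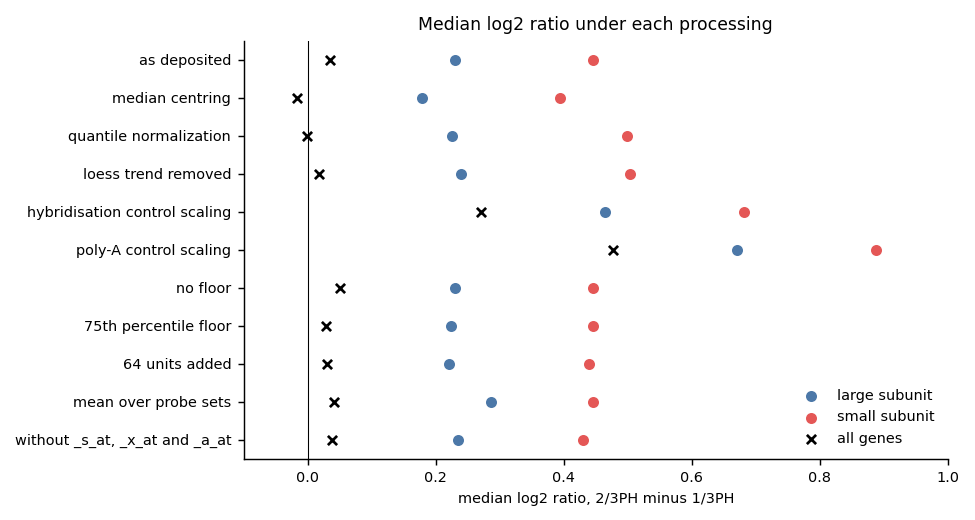
Median log2 ratio, 2/3PH minus 1/3PH, of the large-subunit genes (blue), the small-subunit genes (red) and all genes at the floor (crosses) as deposited and under each of 10 other ways of processing. The small-subunit median lies right of the large-subunit median, and both lie right of the all-gene median, in every line, and spike-in scaling moves all of them to the right together.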

How the data were processed

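Per the labels' protocols, biotin-labelled cRNA from pooled liver RNA was hybridised to Affymetrix arrays and MAS 5.0 in GeneSpring 11.0 gave the signals. The deposited values are log2 signals of 31099 probe sets on each of 2 arrays. Taken as powers of 2 and trimmed by 2% at each end, they averaged 500.3 (1/3PH) and 500.2 (2/3PH), the check of the log base. The sources used here give neither the scaling target nor detection calls, and the number of arrays limits the precision.

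Probe sets with 1 symbol in the platform annotation (20826 of 31042 that were not controls) were named, with symbols updated through RefSeq (GRCr8). The 73 genes had 97 probe sets, and 10 of these lay under the floor. The quantity compared was the log2 ratio of the brightest probe set. The members, lists and limits were chosen with earlier results of these data known. Named genes are the 10 highest and 10 lowest members, those past 2-fold, those with discordant probe sets, the 5 brightest and the dimmest pair. Members at known sites of the particle were named too, with up to 4 genes of each list with the largest ratios. Dap3 and the remaining mitochondria-specific small-subunit genes complete their groups. Mtif2, Gfm1 and Mrrf give the range of the translation factors below 0. The 4 promoters printed were chosen after matches and windows were seen. Where a list's median is given, it is over its genes at the floor. Alternatives were 5 scalings, 2 floors, 64 added units, 2 probe set choices and limits of 1.5-fold and 3-fold, with Python 3.11.15, pandas 2.3.3 and statsmodels 0.14.6.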

Additional observations from a re-analysis of the deposited data

How the results depend on the processing

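No paired analysis was possible because each group has 1 array. The count of members at least 2-fold higher, 3 as deposited, was 2 with median centring, quantile normalization, loess and 64 added units, 4 with the mean over probe sets, 8 when scaled to hybridisation controls and 17 when scaled to poly-A controls, where 10.2% and 16.8% of all genes were at least 2-fold higher. It was 13 at a 1.5-fold limit and 0 at a 3-fold limit. The mean over probe sets takes in those under the floor, and with it Mrps27 fell to 0.07 and Mrps22 rose to 1.13. No member was lower past the limit under any of the 12 alternatives. Members above 0 numbered between 61 and 73. The 61 came with median centring, where 48.7% of all genes were above 0. The 73 came with poly-A control scaling, where 82.2% of all genes were. With poly-A control scaling the median log2 ratio was 0.74 over the members, 0.67 over the large subunit and 0.89 over the small subunit. The members' median less that of all genes lay between 0.25 and 0.30 in the 7 alternatives that can change it. The median of the mitochondrial translation factors, -0.01, was 0.23 scaled to hybridisation controls, 0.43 scaled to poly-A controls and 0.042 without a floor, and that of the respiratory subunits, 0.01, was -0.040 with median centring. Median centring and both spike-in scalings move every ratio by 1 constant. Why the spiked-in controls differed between the arrays was not tested. A floor at the 75th percentile, a signal of 448, left out Mrpl38, and dropping probe sets that may match several transcripts (_s_at, _x_at, _a_at) left out Mrpl17.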

Other observations

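Of the 97 probe sets of the mitoribosomal protein genes, 10 lay under the floor and entered no value of a gene other than the mean over probe sets. The widest apart was the dimmest probe set of Mrps18c, with signals of 3.49 and 54.4, where the gene's brighter probe sets gave log2 ratios of 0.59 and 0.43. Under the floor both probe sets of Mrps2 were higher on the 2/3PH array, at 59.6 and 64.6 and at 5.89 and 21.7. Those of Mrpl37 were lower, at 107 and 66.1 and at 61.9 and 47.4, while its bright probe set had 2849 and 3075.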
